A study of Mus musculus with 2 samples.

Results

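Polycomb repressive complex 1 (PRC1) was followed through 10 genes, Ring1, Rnf2, Bmi1, Pcgf2, Pcgf6, Cbx2, Cbx7, Cbx8, Phc1 and Phc2, taken by name out of 23228 genes named in the files. All 10 were among the 13795 genes compared. The cells were spermatogonial progenitor cells, germ cells that feed spermatogenesis, taken from the testis of C57BL/6 mice 8 days old. There was 1 poly(A) RNA library from Dnmt3l knockout mice and 1 from wild-type mice. The labels name neither the knockout allele nor how many animals gave each library. Dnmt3l encodes a cofactor of the de novo DNA methyltransferases that lacks catalytic activity itself, and the series title places it in the quiescence of these cells. The comparison here asks whether the transcripts of a chromatin-repressing complex differ between the libraries.

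PRC1 places a single ubiquitin on histone H2A and compacts chromatin. Every form of it joins a RING1 or RNF2 ligase to a PCGF protein. In the canonical form a CBX protein reads the H3K27me3 mark left by Polycomb repressive complex 2, and a PHC protein links complexes to each other. Variant forms lack CBX and PHC, and the one built on PCGF6 sits on germline gene promoters in mouse ES cells. In mouse spermatogonia, PRC1 is known for keeping somatic genes silent.

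The value of a gene was its FPKM (fragments per length of transcript and per size of the library), summed over its RefSeq transcripts and the transcript models of 300 nt or more that the authors' assembly placed on the same strand over its exons. Brackets after a value give the deposited lower and upper bounds, summed in the same way. They describe how well 1 library fixes the value and hold nothing on differences between animals. Ratios are log2((knockout FPKM + 1)/(wild-type FPKM + 1)), which understates differences of low genes. Each genotype has 1 library, so differences have no replicate check and were not tested. Read counts are not in the files, so depth in reads is unknown. The median coverage per FPKM was 3.45 in the knockout and 3.13 in the wild-type library.

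The knockout label was met by its gene: Dnmt3l was listed at 0 in the knockout library, against 1.67 FPKM (0.791 to 2.68) in wild type. All 12 spermatogonial markers examined were above 0 in both libraries, but they differed between the libraries, with 8 of 12 lower in the knockout library, 7 of them with bounds apart. Among all compared genes 16.2% were lower with bounds apart. Of the 12 markers Kit, a receptor of differentiating spermatogonia, was lowest in ratio, at 5.93 FPKM in the knockout and 21.7 FPKM in the wild-type library (-1.71). Id4, a marker of undifferentiated ones, was highest, at 35.0 FPKM in the knockout and 14.4 FPKM in the wild-type library (1.23). Other markers of undifferentiated cells went both ways. Gfra1 was at 48.5 FPKM in the knockout and 27.4 FPKM in the wild-type library (0.80), but its ratio was -0.01 with RefSeq transcripts alone. Zbtb16 was at 27.9 FPKM in the knockout and 55.4 FPKM in the wild-type library (-0.97), with bounds apart, and at a ratio of -4.71 with RefSeq transcripts alone. Most markers of other testis cells were higher in the knockout library, as were 66% of all compared genes. Higher were 12 of 12 for Sertoli, 4 of 5 for Leydig, 8 of 10 for macrophage, 6 of 8 for endothelial and 5 of 6 for peritubular cells. Of the exceptions, Lhcgr, Ptprc, Mrc1, Kdr, Tek and Myh11, only Mrc1 had bounds apart. The 12 Sertoli markers summed to 1307 FPKM in the knockout and 605.1 FPKM in the wild-type library, with 5 at least 2-fold higher. The 10 macrophage markers summed to 869.4 FPKM in the knockout and 437.3 FPKM in the wild-type library, with 5 at least 2-fold higher. The sums were 135.7 FPKM in the knockout and 60.5 FPKM in the wild-type library for 6 Leydig markers, 134.3 FPKM in the knockout and 67.5 FPKM in the wild-type library for 8 endothelial markers, and 453.4 FPKM in the knockout and 293.6 FPKM in the wild-type library for 6 peritubular markers. Of those 3 lists 2, 3 and 0 markers were at least 2-fold higher. Among all compared genes 7.68% were at least 2-fold higher. Ratios in these libraries decline with transcript length. The median ratios were 0.78 for Sertoli, 0.99 for Leydig, 1.04 for macrophage, 0.78 for endothelial and 0.62 for peritubular markers. Against genes of the same length they were 0.56, 0.63, 0.64, 0.54 and 0.21, and -0.60 for the spermatogonial markers. Set that way, only Amh (1.62), Rhox5 (2.32) and Pecam1 (1.33) of the somatic markers stayed at least 2-fold higher. Of these 42 somatic markers only Star, of the Leydig list, was listed at 0, in both libraries. The part of these cells in the PRC1 values was not tested, and fewer cells of a type cannot be told apart from less RNA per cell.

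No PRC1 gene differed 2-fold in either direction. Among all compared genes 7.68% were at least 2-fold higher and 3.5% at least 2-fold lower in the knockout library, and after centring on the median gene 4.89% and 5.42%. The 10 ratios ran between -0.70 for Bmi1 and 0.60 for Cbx7, with a median of 0.34 beside 0.22 over all compared genes. Higher in the knockout library were 7 of the 10, where 66% of all genes were higher, and lower were Bmi1, Cbx2 and Rnf2. The median gene had a ratio of 0.21 where both libraries reached 1 FPKM, and the same 7 members lay above it, as did 51.2% of all compared genes, and the same 3 below. The bounds of the libraries did not overlap for 4 higher genes, Phc2, Phc1, Pcgf6 and Cbx7, and for 2 lower genes, Bmi1 and Cbx2. Bounds were apart in the higher direction for 35.4% and in the lower direction for 16.2% of all compared genes, so the PRC1 genes were called about as often as genes at large.

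**Figure D1:**
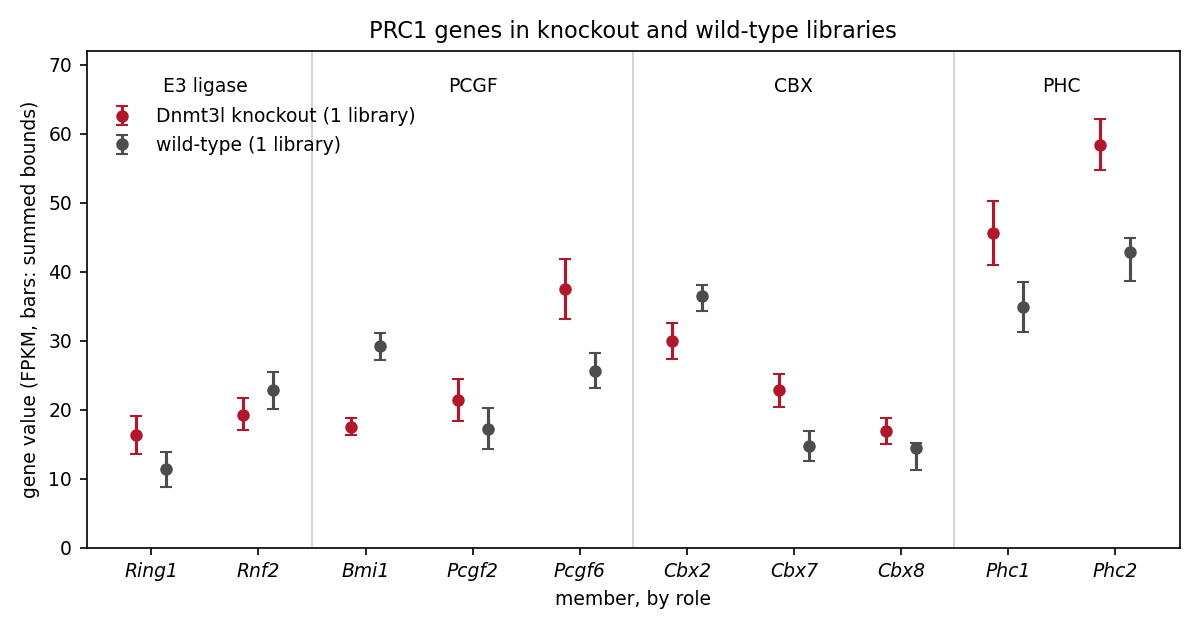
Gene values in FPKM of the 10 PRC1 genes, grouped by role, in the Dnmt3l knockout library (red, left of each pair) and the wild-type library (grey); points are the summed FPKM and bars the summed deposited bounds. Bmi1 stands at 17.6 FPKM in the knockout and 29.2 FPKM in the wild-type library, while Phc2 stands at 58.4 and 42.9 FPKM.

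The ligase genes differed in direction. Ring1, which encodes RING1A, had 16.3 FPKM (13.6 to 19.1) in the knockout library, against 11.4 FPKM (8.77 to 13.8) in the wild-type library, a ratio of 0.48. Rnf2, which encodes RING1B, had 19.3 FPKM (17.0 to 21.6) in the knockout library, against 22.8 FPKM (20.2 to 25.4) in the wild-type library, a ratio of -0.23. For neither gene were the bounds apart. Their summed level was nearly equal, 35.6 FPKM in the knockout and 34.2 FPKM in the wild-type library, and Ring1 made up 45.8% of it in the knockout and 33.3% in the wild-type library. The same share was 43.8% in the knockout and 30.7% in the wild-type library at the exon level. That level takes the FPKM of all models over a base, summed, and averages it along the RefSeq exons.

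The RefSeq transcript of Rnf2 (NM_011277, chr1:151469406-151500823, minus strand, mm10) hardly differed, at 11.4 FPKM in the knockout and 11.6 FPKM in the wild-type library. The difference lay in an assembled model of 7 exons that each library added, at 7.90 FPKM (6.79 to 9.03) in the knockout and 11.2 FPKM (9.84 to 12.5) in the wild-type library. These models begin at different short first exons inside the gene, 17063 nt downstream of the RefSeq start in the knockout and 13523 nt downstream in the wild-type library. GENCODE M21 holds 4 of the 6 introns of the knockout model and all 6 of the wild-type model. The models of Ring1 (chr17:34020792-34024680, minus strand) were partial, with 6 exons and 4.90 FPKM in the knockout library and 3 exons and 3.41 FPKM in the wild-type library. Ring1 RefSeq transcripts made up 70.0% of the knockout and 70.1% of the wild-type value.

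Among the PCGF genes, which decide the kind of PRC1 that forms, Bmi1 was the lowest in ratio of all members. Bmi1, also known for sustaining stem cells of blood and other tissues in mice, had 17.6 FPKM (16.4 to 18.8) in the knockout library, against 29.2 FPKM (27.2 to 31.2) in the wild-type library. Its ratio of -0.70 was above that of 6.57% of the compared genes. The whole value came from 1 RefSeq transcript of 10 exons (NM_007552, chr2:18677018-18686629, plus strand) in both libraries, so no assembled model enters it. Commd3, which ends 801 nt before Bmi1 on the same strand, was higher, with 43.5 FPKM (38.7 to 48.2) in the knockout and 26.8 FPKM in the wild-type library, where its bounds of 19.8 to 26.7 lie below its own value.

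Pcgf2, which encodes MEL18, the close paralog that can take the place of BMI1 in canonical PRC1, had 21.5 FPKM (18.4 to 24.5) in the knockout library, against 17.2 FPKM (14.3 to 20.2) in the wild-type library, a ratio of 0.30 with overlapping bounds. In the knockout library Pcgf2 had a higher summed value than Bmi1 and the bounds of the pair overlapped, while in the wild-type library Bmi1 stood above Pcgf2 with bounds apart. At the exon level Bmi1 was above Pcgf2 in both, at 17.6 and 17.3 in the knockout and 29.2 and 13.3 in the wild-type library. Only 1 of the 3 RefSeq transcripts of Pcgf2 (chr11:97688823-97700497, minus strand) was above 0, NM_001163308 at 11.1 FPKM (9.53 to 12.7) in the knockout and 4.56 FPKM (3.70 to 5.43) in the wild-type library. Assembled models carried the rest, 48.2% of the gene value in the knockout and 73.5% in the wild-type library.

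Pcgf6, the PCGF protein of the variant complex on germline promoters, had 37.5 FPKM (33.2 to 41.9) in the knockout library, against 25.6 FPKM (23.1 to 28.2) in the wild-type library, a ratio of 0.53. The direction was not the same along the gene. The full-length RefSeq transcript (NM_027654, chr19:47033619-47050845, minus strand) was lower, at 13.8 FPKM (12.2 to 15.3) in the knockout and 20.02 FPKM (18.1 to 21.9) in the wild-type library. The knockout library added a 3-exon model of 1154 nt at the 3′ end with 23.8 FPKM (20.97 to 26.5), which overlaps RefSeq exons 8, 9 and 10. The wild-type library added a full-span model of 4388 nt with 5.63 FPKM, of which 2290 nt lie outside RefSeq exons. Over the first 1000 nt of the transcript the level was 17.4 in the knockout and 25.6 in the wild-type library, and over the last 1000 nt it was 33.4 in the knockout and 25.6 in the wild-type library. At the exon level the values were 26.0 in the knockout and 25.6 in the wild-type library, a ratio of 0.02.

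Across all 6 PCGF genes, the 3 others of which were read to complete the family, the sum was 181.2 FPKM in the knockout and 169.0 FPKM in the wild-type library. Bmi1 made up 9.69% of it in the knockout and 17.3% in the wild-type library, Pcgf2 11.8% and 10.2%, and Pcgf6 20.7% and 15.2%. At the exon level the share of Pcgf6 was 16.4% in the knockout and 15.8% in the wild-type library. Pcgf5, of a variant complex without CBX, was the most abundant of the family at 67.8 FPKM in the knockout and 63.3 FPKM in the wild-type library.

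The CBX genes, whose chromodomain proteins bring canonical PRC1 to H3K27me3, differed in direction. Cbx2 had 29.9 FPKM (27.3 to 32.6) in the knockout library, against 36.5 FPKM (34.2 to 38.0) in the wild-type library, a ratio of -0.28 with bounds apart. Its RefSeq transcript of 5 exons (NM_007623, chr11:119023029-119031270, plus strand) was at 15.3 FPKM (13.9 to 16.6) in the knockout and 36.5 FPKM in the wild-type library, a ratio of -1.21. The remaining 14.7 FPKM (13.4 to 16.0) of the knockout library belonged to a model that joins a first exon of 23 nt, 14775 nt upstream of the RefSeq start, to RefSeq exons 4 and 5, leaving out the first 3. Of its 2 introns GENCODE M21 holds 1, the one between those shared exons. No such model was assembled in the wild-type library.

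Cbx7, the CBX protein that dominates PRC1 in mouse ES cells, had the highest ratio of the members, 0.60, with 22.9 FPKM (20.4 to 25.1) in the knockout library, against 14.8 FPKM (12.6 to 16.9) in the wild-type library. It lay above 78.2% of compared genes. The RefSeq transcript (NM_144811, chr15:79915807-79932646, minus strand) had 16.4 FPKM (14.7 to 17.8) in the knockout and 7.13 FPKM (6.09 to 8.16) in the wild-type library, a ratio of 1.10. A model in the wild-type library of 5944 nt, 3051 of them outside RefSeq exons, held 4.28 FPKM there and another 3.38 FPKM, while the single model of the knockout library held 6.52 FPKM. Cbx8, a neighbour of Cbx2 on chromosome 11, had 16.9 FPKM (15.04 to 18.8) in the knockout library, against 14.4 FPKM (11.3 to 15.2) in the wild-type library, all from 1 RefSeq transcript (NM_013926, chr11:119038436-119040913, minus strand). Its ratio of 0.22 was that of the median gene and its bounds overlapped.

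Cbx2, Cbx7 and Cbx8, with Cbx6 of the same family added, summed to 85.4 FPKM in the knockout and 78.8 FPKM in the wild-type library. Of these 4 genes Cbx2 led in both libraries, with 35.0% of the sum in the knockout and 46.4% in the wild-type library, and Cbx7 took 26.9% in the knockout and 18.8% in the wild-type library. At the exon level Cbx2 took 34.3% in the knockout and 46.4% in the wild-type library, and Cbx7 26.7% in the knockout and 18.8% in the wild-type library. Cbx2 exceeded Cbx7 in both libraries with bounds apart, and the gap was narrower in the knockout library.

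**Figure D2:**
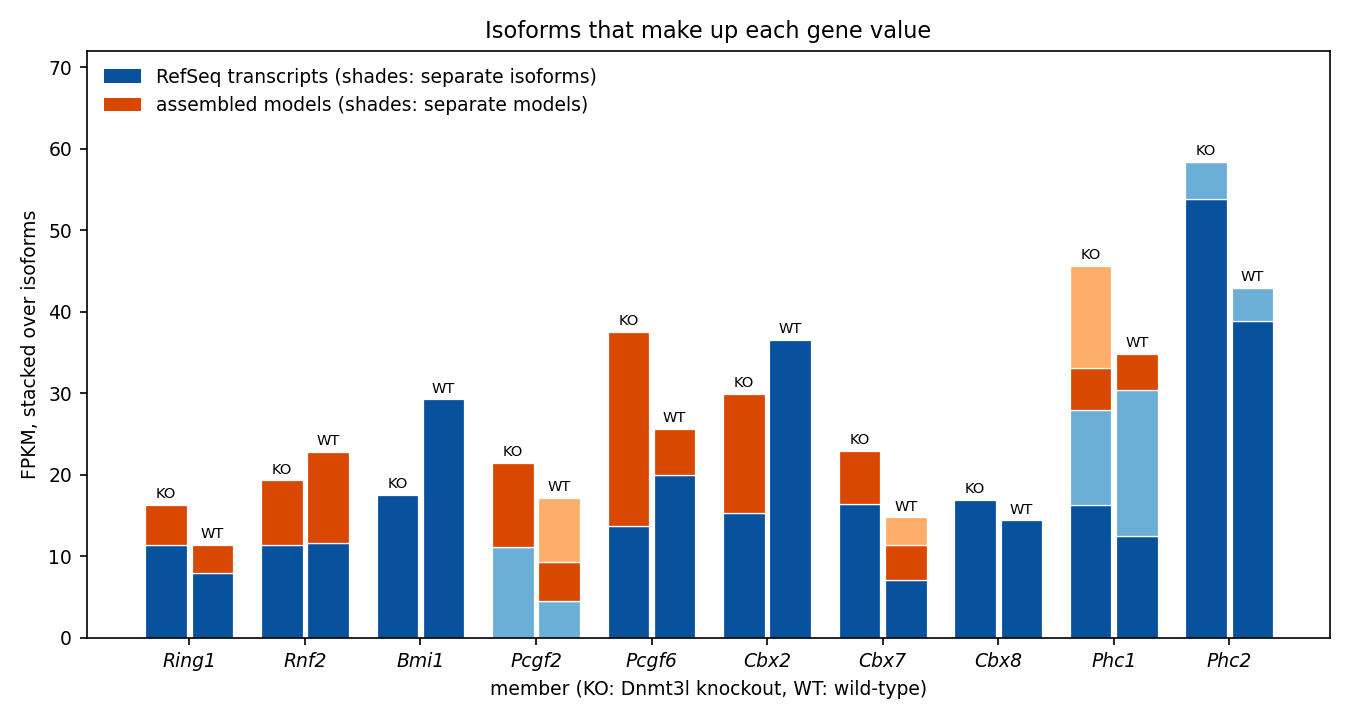
FPKM of each PRC1 gene stacked over its RefSeq transcripts (blue) and assembled models (orange), with the knockout library (KO) left of the wild-type library (WT) for each gene. RefSeq transcripts make up all of Bmi1, Cbx8 and Phc2 in both libraries, while the knockout value of Pcgf6 is 63.3% and that of Cbx2 49.0% assembled model.

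The PHC genes, whose proteins polymerise and cluster canonical PRC1, were by summed value the most abundant member in both libraries, Phc2, and one of the top 3, Phc1. Phc2 had 58.4 FPKM (54.8 to 62.1) in the knockout library, against 42.9 FPKM (38.6 to 44.8) in the wild-type library, a ratio of 0.44 with bounds apart. A short RefSeq transcript of 7 exons, NM_001195083, which starts inside the gene (chr4:128727571-128752881, plus strand), carried 92.1% of the value in the knockout and 90.6% in the wild-type library. The transcript of 15 exons, NM_001195130, was at 4.63 FPKM (4.03 to 5.25) in the knockout and 4.02 FPKM (3.42 to 4.63) in wild type, and NM_018774 was listed at 0 in both. The long Phc2 transcript was a small share of the gene in both, 7.94% in the knockout and 9.36% in the wild-type library. The exon level of Phc2, which also averages over exons that the short transcript lacks, was below that of Phc1. It was 35.7 beside 44.7 in the knockout and 26.4 beside 34.3 in the wild-type library.

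Phc1 had 45.6 FPKM (41.0 to 50.3) in the knockout library, against 34.8 FPKM (31.2 to 38.4) in the wild-type library, a ratio of 0.38 with bounds apart. Its RefSeq transcripts (chr6:122317731-122337015, minus strand) differ by 1 cassette exon of 156 nt, chr6:122332522-122332677, which is coding in 4 GENCODE M21 transcripts and adds 52 codons. NM_007905, with the exon, was at 11.6 FPKM (10.4 to 12.8) in the knockout and 17.9 FPKM (16.3 to 19.5) in the wild-type library. NM_001042623, without it, was at 16.3 FPKM (14.9 to 17.7) in the knockout and 12.5 FPKM (11.2 to 13.9) in the wild-type library. With assembled models added, transcripts that skip the exon were at 21.5 FPKM (19.3 to 23.8) in the knockout and 12.5 FPKM (11.2 to 13.9) in wild type, and those that include it at 24.1 FPKM (21.7 to 26.5) and 22.3 FPKM (20.03 to 24.5). The exon was thus in 52.8% of the Phc1 FPKM in the knockout and 64.0% in the wild-type library, or 41.6% and 58.8% of the RefSeq transcripts alone. The difference of the gene lay mostly in the transcripts without it.

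The cassette exon is shown because it separates the RefSeq transcripts, whose order differs between the libraries. With assembled models added, transcripts that include the exon lead in both. It is given as in the GENCODE M21 transcripts (GRCm38, the build also called mm10), with the exon in capitals and 15 bases of each neighbouring exon in lower case.
Phc1 cassette exon: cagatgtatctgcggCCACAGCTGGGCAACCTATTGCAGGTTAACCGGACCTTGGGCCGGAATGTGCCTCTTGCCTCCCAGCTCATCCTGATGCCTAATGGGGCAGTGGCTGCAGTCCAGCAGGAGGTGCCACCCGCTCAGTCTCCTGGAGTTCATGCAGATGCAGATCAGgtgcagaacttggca

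Phc1 also differed at its 5′ end. Models that begin in a further upstream exon held 17.7 FPKM, or 38.8% of the gene, in the knockout library and 4.37 FPKM, or 12.6%, in the wild-type library. They begin 2638 and 2577 nt upstream of the RefSeq start in the knockout and 2870 nt upstream in the wild-type library. The models with a start 2638 and 2870 nt upstream have all 14 introns in GENCODE M21. Phc3, the third PHC gene, was low at 2.31 FPKM in the knockout and 4.35 FPKM in the wild-type library.

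**Figure D3:**
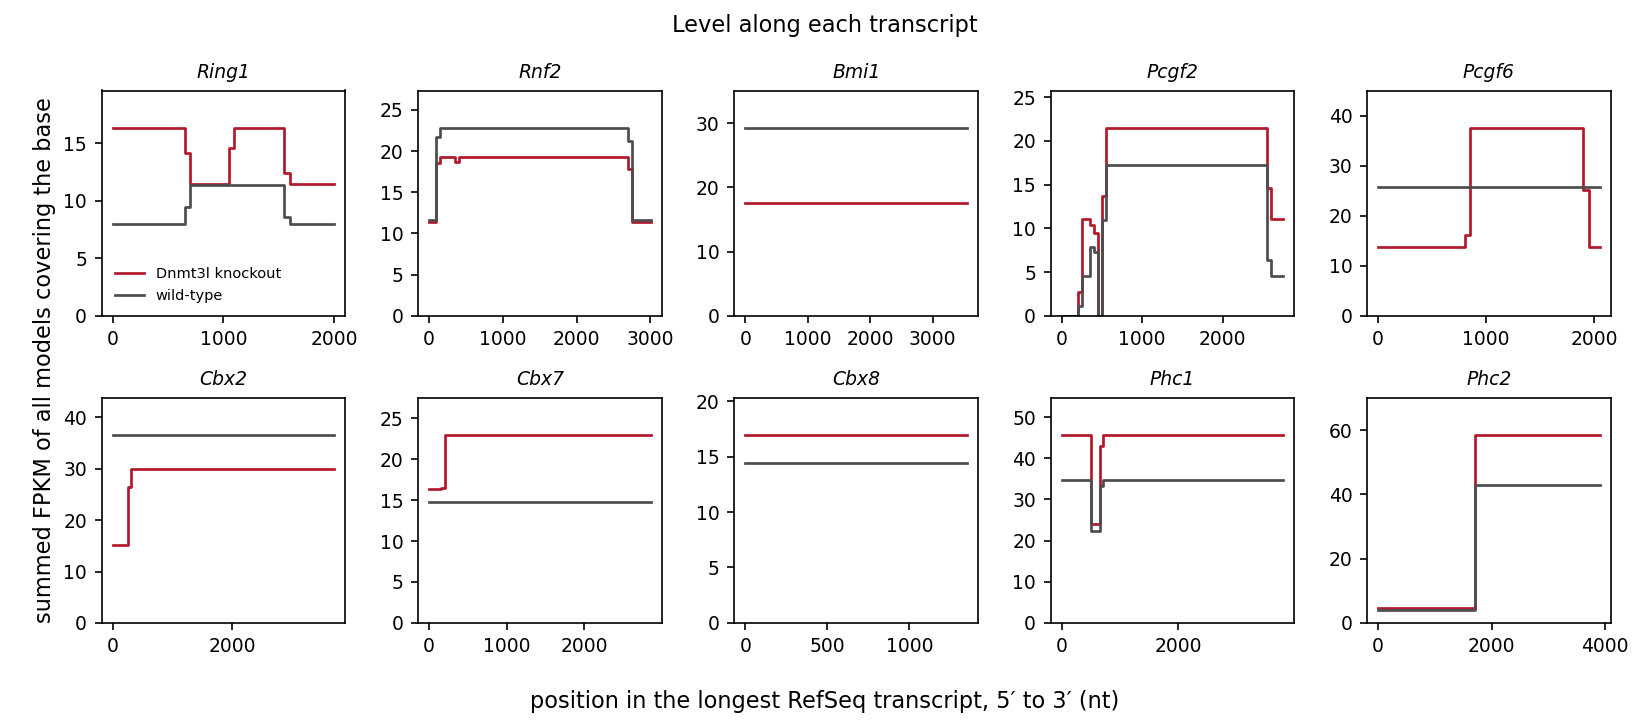
Summed FPKM of all transcripts and models over each 50-nt step of the longest RefSeq transcript of each PRC1 gene, 5′ to 3′, in the knockout (red) and wild-type (grey) libraries; the values are those of whole models, not read coverage. Pcgf6 is lower in the knockout library at the 5′ end (17.4 against 25.6 over 1000 nt) and higher at the 3′ end (33.4 against 25.6), and Phc1 dips in both at the cassette exon.

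Ordered by level per length, the knockout library ran Phc2, Phc1, Pcgf6, Cbx2, Cbx7, Pcgf2, Rnf2, Bmi1, Cbx8 and Ring1. The wild-type library ran Phc2, Cbx2, Phc1, Bmi1, Pcgf6, Rnf2, Pcgf2, Cbx7, Cbx8 and Ring1. Phc2 and Ring1 were at the ends of both. At the exon level Ring1 was again lowest in both, but Phc1 led in the knockout library (44.7) and Cbx2 in the wild-type library (36.5). From Cbx7 down in the knockout library and from Bmi1 down in the wild-type library each gene overlapped the next in bounds, so the order of those neighbours does not exceed the bounds. Phc1 and Pcgf6 in the knockout library and Cbx2 and Phc1 in the wild-type library overlapped as well. Bmi1 held rank 8 in the knockout library, against rank 4 in the wild-type library. All 10 lay in the upper part of the compared genes, between the 57.3 and 88.1 percentiles of level in the knockout and between 50.8 and 86.0 in the wild-type library.

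Ratios in these libraries decline with transcript length (Spearman rho of -0.40 over all compared genes, which are not independent replicates), and the PRC1 transcripts span 1393 to 3949 nt. Set against the median of the genes in the same of 20 length bins, Bmi1 was at -0.77, Rnf2 at -0.37, Cbx2 at -0.34 and Cbx8 at -0.20. The others were above their bin, with Cbx7 at 0.40, Phc2 at 0.39, Phc1 at 0.33, Pcgf6 at 0.20, Ring1 at 0.15 and Pcgf2 at 0.10. Cbx8 alone changed sign, since genes of its length had a median ratio of 0.42.

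**Figure D4:**
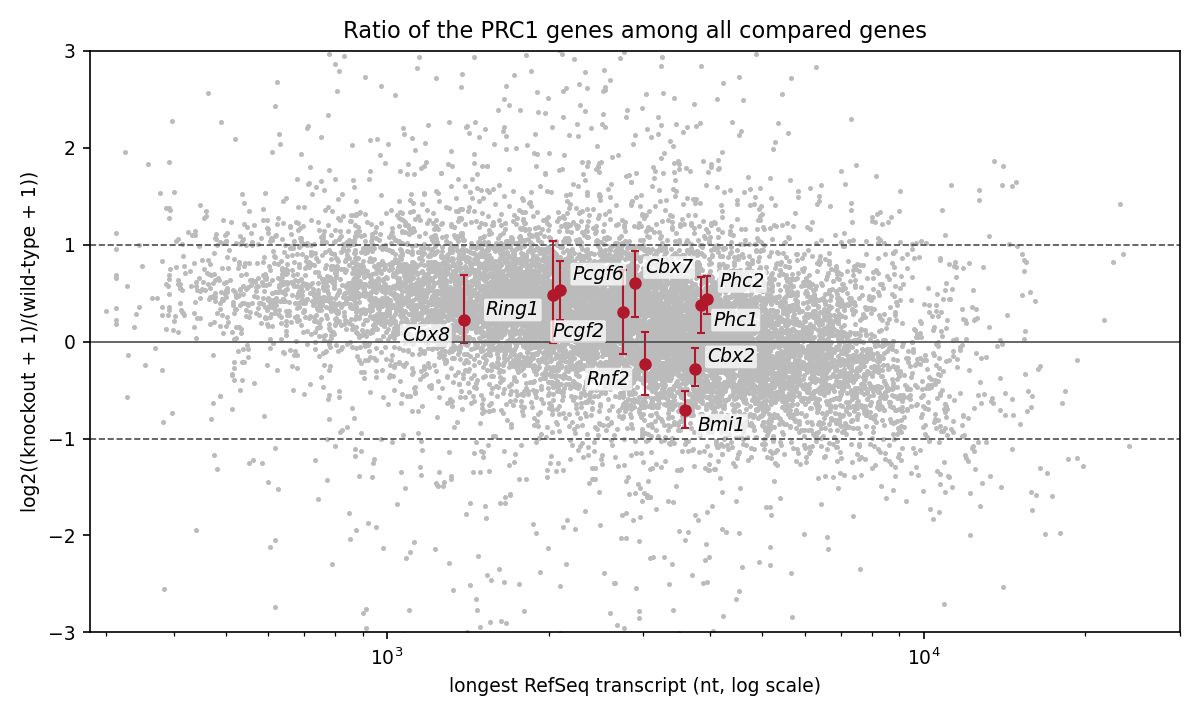
Log2 ratio of knockout over wild-type (FPKM + 1) against the length of the longest RefSeq transcript on a log scale, for all compared genes (grey) and the 10 PRC1 genes (red, bars from the deposited bounds); dashed lines mark 2-fold, and 199 genes beyond a ratio of 3 either way are not drawn. The 10 PRC1 genes lie between the dashed lines, Bmi1 lowest at -0.70 and Cbx7 highest at 0.60.

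Beyond the members, 31 other genes of PRC1 forms were read, chosen by function. Their median ratio was 0.10 beside 0.22 over all compared genes, and -0.23 against genes of the same length, with 0 at least 2-fold higher and 1 at least 2-fold lower, where 7.68% and 3.5% of all compared genes were. It was Mga, the scaffold that joins PCGF6 to promoters in the germline gene complex, at 11.3 FPKM (10.3 to 12.3) in the knockout and 33.7 FPKM (31.6 to 35.9) in the wild-type library. Its ratio of -1.50 was -1.22 at the exon level and -1.19 against genes of its length, 13931 nt being the longest transcript.

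The most abundant of these 31 were Skp1, Cbx3, Scml2 and Csnk2b. Skp1, an adaptor of the variant complex with KDM2B, was at 285.2 FPKM in the knockout and 322.2 FPKM in the wild-type library, a ratio of -0.18 that was 0.35 at the exon level and 0.60 with RefSeq transcripts alone. Cbx3, an HP1 protein found with PCGF6, was at 124.4 FPKM in the knockout and 147.5 FPKM in the wild-type library, the wild-type value above its own upper bound of 144.5. Scml2, a germline partner of PRC1, was at 95.4 FPKM (87.8 to 103.1) in the knockout and 143.2 FPKM (134.8 to 152.3) in the wild-type library, a ratio of -0.58 that was -0.38 at the exon level and 3.05 with RefSeq transcripts alone. Csnk2b, a casein kinase subunit, was at 137.8 FPKM in the knockout and 94.9 FPKM in the wild-type library, above their own upper bounds of 128.7 and 90.8.

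Of 9 genes that remove or read ubiquitin on H2A, 8 were compared, with a median ratio of 0.01, or 0.19 against genes of the same length. Of these 1 was at least 2-fold higher and 0 lower, where 7.68% and 3.5% of all compared genes were. It was Usp21, a deubiquitinase, at 34.0 FPKM (29.8 to 38.2) in the knockout and 15.9 FPKM (13.9 to 17.2) in wild type. Its ratio of 1.05 was 0.68 at the exon level, 0.49 with RefSeq transcripts alone and 0.72 against genes of its length. Bap1, the main H2A deubiquitinase, was at 52.9 FPKM in the knockout and 42.8 FPKM in the wild-type library. Usp16 was listed at 0 in both, which may be a failed estimate.

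Known PRC1 targets were read beside the complex, with the rest of the INK4 family. All 4 INK4 genes, which encode inhibitors of CDK4 and CDK6, were between the 2-fold limits, where 11.2% of all compared genes were past them. Their median ratio was 0.40, beside 0.22 over all compared genes, but -0.12 against genes of the same length. The ratios were 0.31 for Cdkn2a and 0.10 for Cdkn2b, and 0.49 for Cdkn2c and 0.59 for Cdkn2d, which are not taken here as known targets. Cdkn2a, a classic target of BMI1 in mouse fibroblasts, was at 65.2 FPKM in the knockout and 52.2 FPKM in the wild-type library, values above their own upper bounds of 60.8 and 49.4. Of 39 Hox genes, kept silent by Polycomb outside their domains, 19 were compared, with 1 at least 2-fold higher and 0 lower, where 7.68% and 3.5% of all compared genes were. Their median ratio was 0.33, beside 0.22 over all compared genes, and 0.02 against genes of the same length. The gene past 2-fold was Hoxb9, at 5.55 FPKM (4.73 to 6.35) in the knockout and 1.83 FPKM (1.41 to 2.31) in the wild-type library. Its ratio of 1.21 was 1.49 at the exon level and 0.95, short of 2-fold, against genes of its length. The most abundant, Hoxd8 and Hoxd9, had overlapping bounds between the libraries, Hoxd8 at 14.97 FPKM in the knockout and 11.9 FPKM in the wild-type library and Hoxd9 at 15.05 FPKM in the knockout and 11.6 FPKM in the wild-type library. The ratio of Hoxd8 was 0.31, 0.82 at the exon level and -2.07 with RefSeq transcripts alone, and that of Hoxd9 was 0.35, 0.77 at the exon level and 1.51 with RefSeq transcripts alone. Hoxa11, Hoxd11 and Hoxd12 were listed at 0 in the knockout library alone and Hoxd13 in the wild-type library alone, each under 0.1 FPKM in the other.

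The 18 germline genes that PRC1.6, the PCGF6 complex, represses in mouse ES cells were all among the compared genes, with 0 at least 2-fold higher or lower. Among all compared genes 7.68% were at least 2-fold higher and 3.5% at least 2-fold lower. The median ratio of the 18 was -0.12, beside 0.22 over all compared genes. In the knockout library 7 were higher and 11 lower, where 66% of all compared genes were higher. With bounds apart, 6 of the 18 were higher and 6 lower, where 35.4% and 16.2% of all compared genes were. Against genes of the same length the median was -0.30. The 12 spermatogonial markers, which share Dazl, Ddx4 and Stra8 with this list, summed to 1277 FPKM in the knockout and 1475 FPKM in the wild-type library, with 1 at least 2-fold higher and 1 lower, and their part in these values was not tested. Dazl, an RNA-binding regulator of germ cells, had the lowest ratio, at 136.7 FPKM (131.0 to 143.5) in the knockout and 222.6 FPKM (216.3 to 232.8) in the wild-type library. Taf7l, a germ cell TFIID subunit, was at 145.1 FPKM in the knockout and 219.5 FPKM in the wild-type library, a ratio of -0.59 that was 0.13 with RefSeq transcripts alone. Mael, of the piRNA pathway, was at 197.8 FPKM in the knockout and 168.7 FPKM in the wild-type library. Tuba3a, which has a near-identical copy that could share its reads, was at 465.5 FPKM in the knockout and 395.6 FPKM in the wild-type library.

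**Figure D5:**
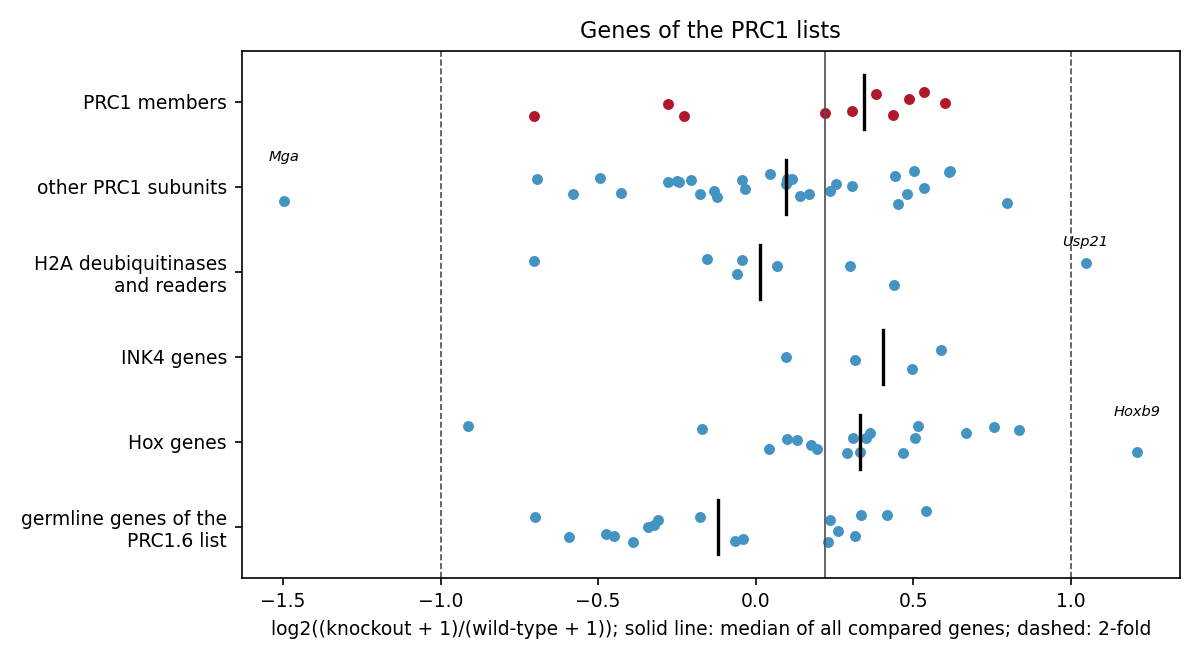
Log2 ratio of knockout over wild-type (FPKM + 1) of each compared gene in the PRC1 lists, 1 point a gene, with the list median as a black bar; the solid line is the median of all compared genes and the dashed lines 2-fold, and genes past 2-fold are named. The PRC1 members have a median of 0.34 and none past 2-fold, while Mga lies at -1.50.

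Promoters were read because DNMT3L acts in the methylation of CpG sites. RefSeq (GRCm38.p6) gives 11 windows, from 250 bases before to 50 after a start, for 9 of the members and none was found for Cbx2. They hold between 2 and 45 CpG sites, against a median of 7 and an upper quartile of 20 over 32851 windows of the same length. For Phc1 and Rnf2 the window lies upstream of every start counted here. The Phc1 window is at chr6:122340178-122340477, and the farthest counted Phc1 start is at 122339885. The promoter of the short Phc2 transcript, which carries most of its FPKM, has 45, and that of Ring1 has 37. The E-box CACGTG, which reads the same on both strands and holds 1 CpG itself, is in 4 of the 11 windows, of Bmi1, Pcgf2, Cbx8 and the long Phc2 transcript, and in 7.15% of all windows. The E2F-like motif GCGGGAA, searched on both strands, is in 0 of the 11 and in 4.60% of all. These letters are a description and no methylation was measured in these samples.

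The windows of Bmi1, lowest in ratio, and Cbx7, highest, are shown with their CpG sites in capitals, 23 in Bmi1 and 33 in Cbx7. They lie at chr2:18676768-18677067 (plus strand) and chr15:79932597-79932896 (minus strand).
Bmi1 promoter: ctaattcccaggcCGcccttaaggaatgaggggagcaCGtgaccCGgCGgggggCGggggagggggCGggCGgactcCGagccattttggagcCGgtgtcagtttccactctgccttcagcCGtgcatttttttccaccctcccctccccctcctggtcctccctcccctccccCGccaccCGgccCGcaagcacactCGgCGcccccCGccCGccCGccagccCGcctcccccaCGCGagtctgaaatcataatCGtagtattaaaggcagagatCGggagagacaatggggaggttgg
Cbx7 promoter: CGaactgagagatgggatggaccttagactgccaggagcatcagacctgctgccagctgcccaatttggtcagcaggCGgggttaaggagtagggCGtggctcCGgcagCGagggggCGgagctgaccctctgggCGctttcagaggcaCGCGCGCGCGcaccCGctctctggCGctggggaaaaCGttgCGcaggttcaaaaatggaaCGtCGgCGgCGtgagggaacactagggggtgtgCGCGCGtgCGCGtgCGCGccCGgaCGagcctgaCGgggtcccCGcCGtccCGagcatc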

How the data were processed

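Poly(A) RNA was fragmented, copied with random primers and read as pairs (HiScanSQ), per the labels' protocols, which describe no step that marks the strand. Per the submitters' processing notes, which give no settings, the tools were CASAVA 1.9, TopHat2 2.0.8 and Cufflinks 2.1.1, with mm10. Each deposited file lists transcripts with FPKM, bounds and coverage, which the authors made with those tools, and a score field that was not used. The 2 files list 30073 RefSeq transcripts each, and 20415 assembled models in the knockout and 20579 in the wild-type library.

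RefSeq identifiers were named by accession in RefSeq (29451 of 30079), by accession in GENCODE M21 (177) or by exon overlap with it (438). An assembled model of at least 300 nt was assigned to the same-strand gene that covers most of its exon bases. A model lacking a strand needed a share of 0.5, and none was assigned to a PRC1 gene. A gene was compared if either library reached 1 FPKM and its longest RefSeq transcript 300 nt, with a pseudocount of 1, in Python 3.11.15 with numpy 2.4.6 and scipy 1.17.1. Simulated data with known ratios were used to check the computation. For all 10 PRC1 genes the value lies within its bounds.

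The PRC1 genes and all lists were chosen with earlier results of these data known. A list gene is not reported here, and its list is described without it. Beside the members, the text names Dnmt3l, and, of the pathway lists only, genes past 2-fold, up to 4 of the most abundant of each list, and those at 0 in 1 library. Commd3, Phc3, Pcgf5, Usp16 and the markers were named after their values were seen.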

Additional observations from a re-analysis of the deposited data

How the results depend on the processing

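The median ratio of the 10 PRC1 genes stayed above 0 under all 12 alternatives (a pseudocount of 0.1 or of 5, a filter of 10 FPKM, no filter at all, centring, upper-quartile scaling, RefSeq transcripts only, the exon level, the most abundant RefSeq transcript, the coverage attribute, no length limit on models, and length bins, the last chosen after seeing the data). It lay between 0.10 with RefSeq transcripts only, below the 0.16 of all genes there, and 0.49 with coverage, beside 0.37 of all genes there. Coverage per FPKM was itself 1.10 times as high in the knockout as in the wild-type library. With RefSeq transcripts only, as with the most abundant one, 2 members were at least 2-fold higher (Pcgf2 at 1.12 and Cbx7 at 1.10) and 1 lower (Cbx2 at -1.21), where 11.7% and 11.3% of all genes were with RefSeq transcripts only and 11.6% and 11.1% with the most abundant one. At a 1.5-fold limit 1 was higher (Cbx7) and 1 lower (Bmi1), where 22.7% and 9.03% of all genes were. Requiring bounds apart as well could only leave the 2-fold counts at 0, so it adds nothing. Under the 12 alternatives Bmi1, Rnf2 and Cbx2 stayed below 0 and Pcgf2, Ring1, Cbx7 and Phc2 above it. The pseudocounts could not change a sign, and both filter settings and the length limit left every member value the same. These alternatives therefore say nothing on the signs, including that of the median. RefSeq transcripts only and the most abundant one gave nearly the same member values. Pcgf6 reversed to -0.51 and Phc1 to -0.12 with RefSeq transcripts only, since assembled models hold much of both, and Cbx8 to -0.20 in length bins. No paired analysis was possible because there is 1 library per genotype. Depth in reads is unknown, and the bounds do not cover differences between animals.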

Other observations

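Single-exon models without a strand lay in introns of PRC1 genes and were counted for none. In Pcgf2 there was 1 in the knockout library, at 2.40 FPKM, and 3 in the wild-type library, at 2.52, 2.71 and 2.64 FPKM. In Pcgf6 the knockout library held one of 631 nt at 7.06 FPKM and one of 258 nt at 8.55 FPKM, and the wild-type library one of 336 nt at 7.88 FPKM. The values of the 258-nt and 336-nt models exceed their own upper bounds of 6.30 and 6.60 FPKM.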
